A study of Homo sapiens with 6 samples.

Results

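Teneurins, latrophilins and FLRT proteins are cell-surface proteins that bind each other across the gap between neurons. The 10 genes TENM1, TENM2, TENM3, TENM4, ADGRL1, ADGRL2, ADGRL3, FLRT1, FLRT2 and FLRT3 were taken by gene symbol from the RNA-seq table of human SH-SY5Y cells, which has 21301 genes. Of the 10, 9 had a row and all 9 passed the filter on low counts. FLRT2 had no row and is not analysed here. SH-SY5Y is a neuroblastoma cell line that is widely used as a human neuronal model. The cells received 10 nM siRNA against PSF (siPSF) or siControl and were collected after 72 h, with 3 libraries per group labelled as replicates 1 to 3. According to the methods, siPSF was a single siRNA sequence, so effects of PSF loss and of that sequence cannot be told apart. PSF is the RNA-binding protein encoded by SFPQ, which acts in splicing and transcription and belongs to the nuclear bodies called paraspeckles.

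Teneurins are large single-pass membrane proteins with long extracellular parts that fold into a barrel. Latrophilins are adhesion G protein-coupled receptors (GPCRs), first known as receptors of a toxin of the black widow spider, and they bind teneurins and FLRT proteins on the facing cell. FLRT proteins carry leucine-rich repeats and also bind UNC5 receptors, through which they act in axon and neuron guidance. In the brain these 3 families are known for specifying which neurons form synapses with each other.

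After siPSF, 4 of the 9 genes were lower and 0 were higher: TENM1, TENM4 and TENM3 among the teneurins and ADGRL3 among the latrophilins. TENM1 retained 33.8% of its siControl level, ADGRL3 42.3%, TENM4 51.2% and TENM3 61.0%. ADGRL1, ADGRL2, FLRT1, FLRT3 and TENM2 did not pass the test. Calls were made at an adjusted p under 0.05, by the quasi-likelihood test of edgeR on counts, with p-values adjusted by the Benjamini-Hochberg method across the 19694 genes that could be tested. Over all genes tested, 8.27% were called lower and 6.65% higher, and the median log2 fold change was 0.01. The median of the 9 genes was -0.71. At an unadjusted p under 0.05, 6 of the 9 genes were lower and 0 higher, beside 15.4% and 14.4% of all genes tested. DESeq2 called 4 lower and 0 higher, beside 10.4% and 8% of all genes.

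To show the DNA next to the starts of the 4 lowered genes, the 250 bases upstream of the RefSeq start site farthest from the gene's end, among those with a window, are given, from GRCh38.p14 and in the direction of the gene. RefSeq windows of this kind were found for 9 of the 10 genes, all but ADGRL1. The TENM1 window is chrX:125204313-125204562 (minus strand), the TENM3 window chr4:182143713-182143962 (plus strand), the TENM4 window chr11:79441031-79441280 (minus strand) and the ADGRL3 window chr4:61200076-61200325 (plus strand). Capitals mark the GC box (GGGCGG) and the CCAAT box (CCAAT), searched on both strands.
TENM1: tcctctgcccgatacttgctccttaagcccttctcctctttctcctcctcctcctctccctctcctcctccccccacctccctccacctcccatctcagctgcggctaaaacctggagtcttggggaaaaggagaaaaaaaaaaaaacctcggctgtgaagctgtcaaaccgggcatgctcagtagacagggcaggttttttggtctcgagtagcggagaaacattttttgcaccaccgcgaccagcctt
TENM3: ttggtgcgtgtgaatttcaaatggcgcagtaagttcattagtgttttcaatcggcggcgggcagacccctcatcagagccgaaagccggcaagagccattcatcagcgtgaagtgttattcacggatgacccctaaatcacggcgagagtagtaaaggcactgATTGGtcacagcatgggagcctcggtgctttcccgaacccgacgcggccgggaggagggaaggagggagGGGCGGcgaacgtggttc
TENM4: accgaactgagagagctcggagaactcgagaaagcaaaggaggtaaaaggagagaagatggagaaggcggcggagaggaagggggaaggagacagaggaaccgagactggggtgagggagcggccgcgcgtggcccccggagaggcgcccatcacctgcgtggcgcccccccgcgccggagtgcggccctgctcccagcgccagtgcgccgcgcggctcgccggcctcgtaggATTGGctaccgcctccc
ADGRL3: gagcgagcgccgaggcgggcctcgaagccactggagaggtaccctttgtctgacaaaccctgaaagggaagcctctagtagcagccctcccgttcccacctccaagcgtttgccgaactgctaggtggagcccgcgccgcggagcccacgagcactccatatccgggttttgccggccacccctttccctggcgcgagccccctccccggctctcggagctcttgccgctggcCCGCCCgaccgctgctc

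The TENM3 window holds both motifs, the TENM4 window a CCAAT box, the ADGRL3 window a GC box and the TENM1 window neither. Among all 35116 windows of the same length, 42.6% hold the GC box, 32.0% the CCAAT box and 10.7% the TATA box (TATAAA), which none of these 4 windows holds. The GC content was 54.0% in the TENM1 window, 56.8% in TENM3, 69.2% in TENM4 and 68.0% in ADGRL3, against a median of 58.0% over all windows. Further windows were found for TENM1, TENM3 and ADGRL3, 1 each. The other TENM1 window, at the start of the canonical GENCODE transcript, and the other ADGRL3 window hold a CCAAT box. The shares over all windows are per window and not per gene, so they give no background for genes with several windows. The other ADGRL3 and TENM3 windows hold a GC box.

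The libraries held between 101540520 and 132420931 counts, and levels are given as CPM, counts scaled to the normalized library size. The targeted gene SFPQ was at 356 to 401 CPM in siControl and at 165 to 209 CPM in siPSF (log2 fold change -0.99, standard error 0.10). All 10 noradrenergic neuroblastoma markers had a row, although TH, which encodes the first enzyme of catecholamine synthesis, was at only 0.741 CPM in siControl. Of these 10 markers, 2 were lower (TH and DBH) and 1 higher (GATA3) after siPSF, and their summed level was 5206 to 5812 CPM in siControl and 4656 to 5742 CPM in siPSF. Of 6 Schwann or glial markers 3 had a row (SOX10 and GFAP were among those with none), and they summed to at most 1.72 CPM in siControl and 2.49 CPM in siPSF. Of 4 blood or vessel markers only CD34 had a row, at no more than 0.562 CPM. Of 6 mesenchymal markers 5 had a row, with summed levels of 274 to 296 CPM in siControl and 232 to 265 CPM in siPSF, and FN1 among them was lower. The part of these markers in the results below was not tested. The labels do not say whether the replicates were separate cultures, whereas the paper calls them biological, so p-values measure the spread between these libraries. In bulk RNA, fewer cells that express a gene and less RNA per cell cannot be told apart.

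Levels of different genes were compared as FPKM, the authors' values scaled for exon length and library size. In the siControl libraries ADGRL2 was highest at 48.0 ± 4.33 FPKM (SD, n = 3), followed by ADGRL1 at 14.4 ± 0.787, TENM3 at 12.3 ± 2.32 and TENM4 at 4.70 ± 0.326 FPKM. FLRT1, FLRT3, ADGRL3 and TENM1 lay at 0.715, 0.534, 0.331 and 0.322 FPKM, and TENM2 was lowest at 0.0332 FPKM. The libraries of ADGRL1 and TENM3 overlapped in FPKM, as did each neighbouring pair from FLRT1 down to TENM1, whereas the other neighbours lay apart. In the siPSF libraries the order of the first 4 genes was the same, and ADGRL1 and TENM3 lay apart, at 13.6 and 7.02 FPKM. FPKM per count differed between libraries by up to 15.2% from the median for FLRT3, 7.59% for ADGRL3 and 7.48% for FLRT1, and by less than 4% for the other 6 genes. The exon length implied by counts and FPKM was 12.4 kb for FLRT1, against 4.17 kb in its canonical GENCODE transcript. For FLRT3 it was 4.95 kb against 4.98 kb. The FPKM of FLRT1 beside those of other genes, and its place in the order, therefore depend on the length used.

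**Figure D1:**
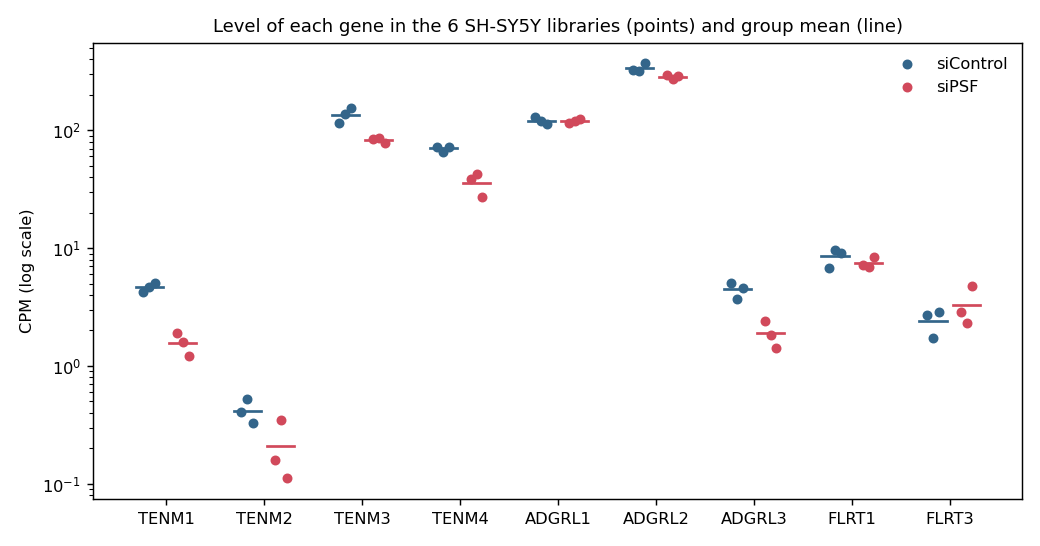
CPM on a log scale of the 9 genes in the 3 siControl and 3 siPSF libraries (points) with the group means (lines). All siPSF points lie below all siControl points for TENM1, TENM3, TENM4, ADGRL2 and ADGRL3, whereas the groups overlap for the other 4 genes.

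Among the teneurins called lower, TENM1, a gene on the X chromosome, had the lowest log2 fold change. It was at 4.27, 4.71 and 5.08 CPM in the siControl libraries and at 1.92, 1.60 and 1.22 CPM in the siPSF libraries. The groups did not overlap, and the highest siPSF value was under the lowest siControl value by more than the spread of either group. The log2 fold change was -1.56 (standard error 0.18, 95% interval -1.96 to -1.17), with an adjusted p of 2.7e-04 (edgeR).

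TENM4, mutations of which have been linked to essential tremor, was at 72.9, 66.0 and 72.5 CPM in siControl and at 38.6, 42.4 and 27.2 CPM in siPSF. The groups did not overlap, and siPSF replicate 3 was the lowest library. The log2 fold change was -0.97 (standard error 0.14, 95% interval -1.27 to -0.67), with an adjusted p of 8.3e-04 (edgeR). TENM3, which guides wiring in the visual system and hippocampus and is needed for eye development, was the most abundant teneurin. It was at 116, 137 and 155 CPM in siControl and at 84.6, 85.6 and 78.7 CPM in siPSF. The siControl libraries were widely spread but all lay above the siPSF libraries. The log2 fold change of TENM3 was -0.71 (standard error 0.10, 95% interval -0.94 to -0.49), with an adjusted p of 9.5e-04 (edgeR).

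TENM2, whose protein binds latrophilins at synapses, was counted only 49, 70 and 41 times in the siControl libraries and 19, 37 and 11 times in the siPSF libraries. In CPM it was at 0.403, 0.525 and 0.326 in siControl and at 0.160, 0.350 and 0.112 in siPSF, so that siPSF replicate 2 lay within the siControl range. The log2 fold change was -1.01 with a wide 95% interval of -1.89 to -0.13, and the adjusted p of 0.12 (edgeR) did not pass. Without siPSF replicate 2 it was -1.60 and passed (edgeR, adjusted p = 0.022). TENM1 was at -1.57 without that library. The interval of TENM2 holds the values of TENM1, TENM3 and TENM4, so at this depth its change could not be told from theirs.

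Of the latrophilins, ADGRL3, which carries variants associated with attention deficit hyperactivity disorder, was the least abundant. It was at 5.08, 3.73 and 4.61 CPM in siControl and at 2.42, 1.82 and 1.43 CPM in siPSF. The groups did not overlap. The log2 fold change of ADGRL3 was -1.24 (standard error 0.20, 95% interval -1.68 to -0.80), with an adjusted p of 0.0018 (edgeR).

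ADGRL2 was at 323, 321 and 370 CPM in siControl and at 295, 275 and 288 CPM in siPSF. The siPSF libraries were the 3 lowest, by a small margin. Its log2 fold change was -0.24 (standard error 0.09, 95% interval -0.43 to -0.05), which did not pass (edgeR, adjusted p = 0.084). After the FPKM of each library were brought to a common total, ADGRL2 passed at -0.42 (limma, adjusted p = 0.028), a scale on which the median of all genes was itself at -0.16. ADGRL1 was at 130, 121 and 113 CPM in siControl and at 116, 119 and 126 CPM in siPSF, with full overlap. Its log2 fold change was -0.01, and its 95% interval of -0.19 to 0.17 did not reach that of ADGRL3.

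The FLRT genes were low in this line. FLRT1, whose protein binds fibroblast growth factor receptors, was at 6.74, 9.72 and 9.03 CPM in siControl and at 7.13, 6.93 and 8.48 CPM in siPSF. The siPSF libraries fell inside the siControl range, and the log2 fold change was -0.18 (95% interval -0.51 to 0.15; edgeR, adjusted p = 0.47). It was -0.32 without siControl replicate 1, -0.27 without siPSF replicate 3 and -0.08 without siControl replicate 2. FLRT3, which binds UNC5B and ROBO1, was at 2.69, 1.74 and 2.87 CPM in siControl and at 2.89, 2.32 and 4.74 CPM in siPSF. Only siPSF replicate 3 stood clearly above the siControl libraries. The log2 fold change of FLRT3 was 0.45 (95% interval -0.12 to 1.01; edgeR, adjusted p = 0.28), and without siPSF replicate 3 it was 0.10.

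**Figure D2:**
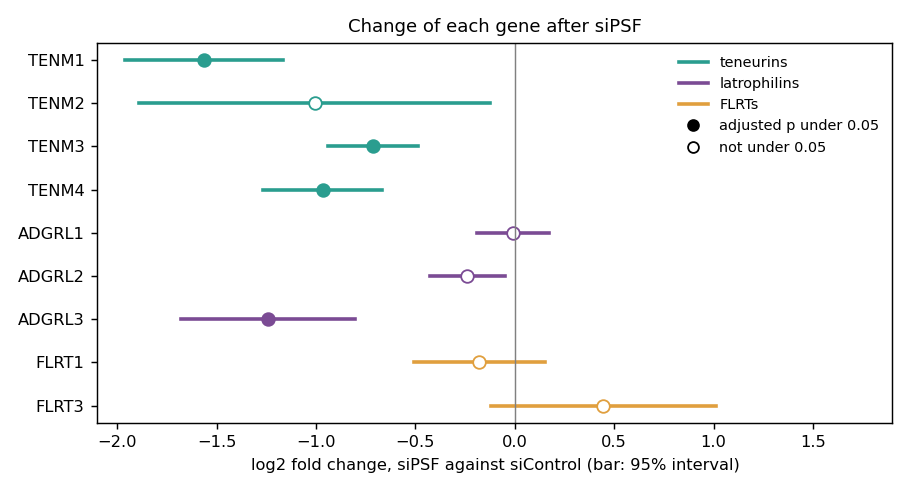
Log2 fold change of each gene, siPSF against siControl, with its 95% interval, coloured by family and filled where the adjusted p was under 0.05. The filled points are TENM1, TENM3, TENM4 and ADGRL3, between -1.56 and -0.71, and the intervals of ADGRL1, FLRT1 and FLRT3 span 0.

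The 3 siPSF libraries were the 3 lowest for 5 of the 9 genes, and the 3 highest for 0 of 9. Over all genes tested, the siPSF libraries were the 3 lowest for 17.8% and the 3 highest for 16.7%. The teneurins had 3 such genes of 4 with the siPSF libraries lowest, and the latrophilins 2 of 3. All 5 of these genes span 688 kb or more in RefSeq, and the share among genes of that length was not taken.

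The make-up of each family was also described per library, as each gene's share of the family's summed FPKM. The summed teneurin level was 15.3, 16.8 and 20.1 FPKM in siControl and 9.76, 10.2 and 8.28 FPKM in siPSF. TENM3 and TENM4 together made up nearly all of it in both groups. TENM3 held 70.6 ± 3.72% in siControl and 74.9 ± 3.54% in siPSF, and TENM4 27.3 ± 3.67% and 23.9 ± 3.38% (SD, n = 3 each), so that their shares overlapped between the groups. TENM1 held 1.80% to 1.88% in siControl and 0.936% to 1.28% in siPSF, without overlap.

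The summed latrophilin level was 62.7 ± 3.84 FPKM in siControl and 52.4 ± 1.84 FPKM in siPSF (SD, n = 3 each), and its libraries did not overlap. Family sums of FPKM lack the normalization between libraries used for CPM. On the log2(FPKM + 0.5) scale the median of all genes was -0.06, and the change of the sum was not tested. ADGRL2 held 76.4 ± 2.33% of the latrophilin sum in siControl and 73.9 ± 1.25% in siPSF (SD, n = 3 each). ADGRL3, the latrophilin called lower, held only 0.526% and 0.237%, or 0.965% and 0.462% of the summed counts when these were not divided by length. The most abundant latrophilin was therefore among those that did not pass the test, while the teneurins with most of the transcripts were called lower. FLRT1 held 57.5 ± 11.6% of the FPKM sum of FLRT1 and FLRT3 in siControl, with 70.2% in replicate 2, and 49.5 ± 8.24% in siPSF (SD, n = 3 each). Of their counts, not divided by length, FLRT1 held 77.4% and 70.1%. The FPKM of FLRT1 imply 12.4 kb of exons, against 4.17 kb in its canonical GENCODE transcript, so its FPKM share depends on that length.

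**Figure D3:**
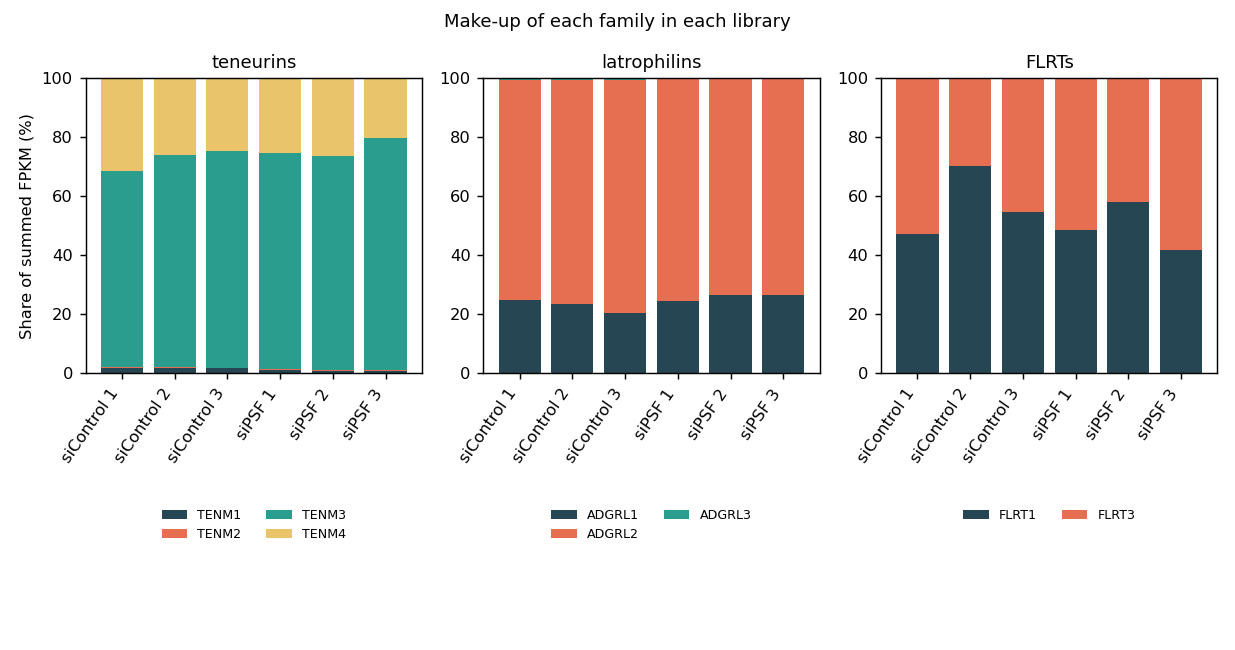
Share of each gene in the summed FPKM of its family in the 6 libraries, as stacked bars from 0 to 100%. TENM3 and TENM4 fill the teneurin bars, ADGRL2 and ADGRL1 the latrophilin bars, and the FLRT bars hold FLRT1 and FLRT3 only because FLRT2 had no row. The FLRT1 share rests on an implied exon length of 12.4 kb, against 4.17 kb in its canonical GENCODE transcript.

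To see whether relatives changed unequally, the log2 ratio of CPM of each pair within a family was taken in every library, which needs no scaling between libraries. Of 10 pairs, 4 had ratios that did not overlap between the groups, and each of the 4 included TENM1 or ADGRL3, so they are not separate observations. TENM1 to TENM3 was at -4.77, -4.86 and -4.93 in siControl and -5.46, -5.74 and -6.02 in siPSF, a difference of -0.89. TENM1 to TENM4 differed by -0.60. Thus TENM1 was lower in siPSF relative to both abundant teneurins in all 3 libraries. ADGRL2 to ADGRL3 was at 5.99, 6.43 and 6.32 in siControl and 6.93, 7.24 and 7.65 in siPSF, a difference of 1.03, and ADGRL1 to ADGRL3 differed by 1.26. TENM3 to TENM4 differed by 0.29 with overlapping groups. With 3 libraries per group the two-sided exact permutation test cannot give a p under 0.1, the value of these pairs (0.25 after Benjamini-Hochberg adjustment over the 10 pairs), so none of these differences can pass.

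The 9 genes differ widely in length. In RefSeq, TENM3 spans 1355 kb (chromosome 4, 181447613 to 182803024; 659 kb in GENCODE), TENM2 1285 kb (chromosome 5, 166979029 to 168264157), ADGRL3 878 kb (chromosome 4, 61200326 to 62078335), TENM1 828 kb (chromosome X, 124375903 to 125204312), TENM4 788 kb (chromosome 11, 78652829 to 79441030) and ADGRL2 688 kb (chromosome 1, 81306132 to 81993932). FLRT1 spans 83.2 kb (chromosome 11, 64035931 to 64119171), ADGRL1 58.4 kb (chromosome 19, 14147743 to 14206169) and FLRT3 14.6 kb (chromosome 20, 14322985 to 14337612). The 4 genes called lower were all among the 6 genes of 400 kb or more, and 0 of the 3 shorter genes was called. Among all 370 protein-coding genes of 400 kb or more tested, 53.8% were called lower, with a median log2 fold change of -0.58, against 20.7% of the 2400 genes of 100 to 400 kb and 4.65% of the 11646 genes of under 100 kb. The 4 of 6 long genes called here are thus close to what genes of that length showed in general, and the count is not particular to these families.

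ADGRL2 and ADGRL3 are both long latrophilin genes but lay apart within that band. Of the genes of 400 kb or more, 14.6% had a lower log2 fold change than ADGRL3 and 72.4% a lower one than ADGRL2. For TENM1 the value was 6.49%, for TENM4 27.3% and for TENM3 39.7%. RefSeq gives 8 start sites for ADGRL2, of which 6 lie under 200 kb from the end of the gene, and the canonical GENCODE transcript spans 193 kb. The ADGRL3 start sites lie 876 and 878 kb from its end. For TENM3 the start sites with a window lie 354 and 659 kb from its end. Gene counts do not show which start was used.

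**Figure D4:**
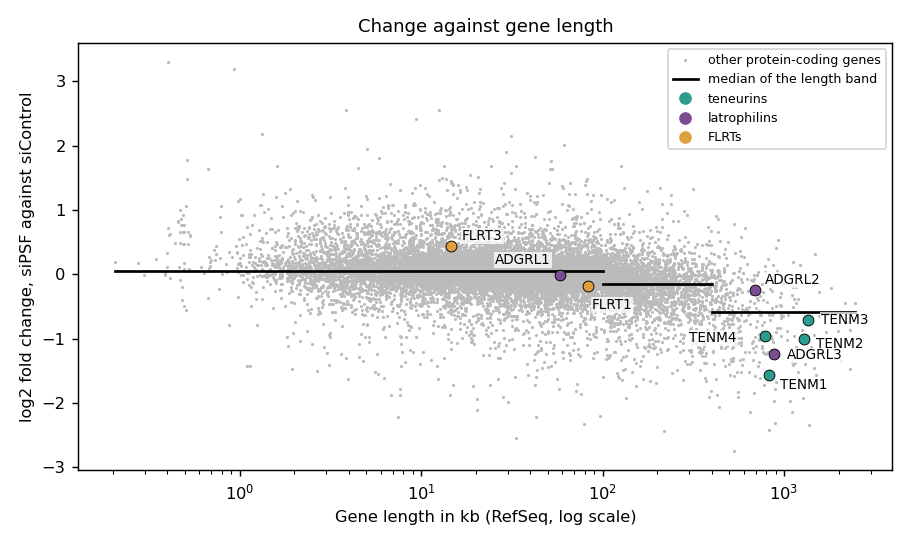
Log2 fold change against RefSeq gene length on a log scale for all protein-coding genes tested (grey), with the median of the genes under 100 kb, of 100 to 400 kb and of 400 kb or more as black lines. TENM1, TENM2, TENM3, TENM4 and ADGRL3 lie under the last of these medians, at -0.58, and ADGRL2 lies above it.

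Some of these genes overlap others on the opposite strand, and whether strand was used in counting is not given in the sources used here. In GENCODE, STAG2 partly overlaps TENM1 and shares 241 of the 13547 exonic bases of TENM1. STAG2 was at 60.6 ± 5.93 CPM in siControl and 56.7 ± 6.46 in siPSF (SD over 3 libraries each). Its log2 fold change was -0.09 (edgeR, adjusted p = 0.60). The part of STAG2 reads in the TENM1 counts was not tested. FLRT1 lies inside MACROD1 and FLRT3 inside MACROD2, both genes of ADP-ribose metabolism, without shared exonic bases in GENCODE. These hosts were looked up after their values were seen. The level of MACROD1 was 43.5 ± 7.02 CPM for siControl and 18.0 ± 3.36 for siPSF (SD over 3 libraries each), which is -1.27 on the log2 scale (edgeR, adjusted p = 2.9e-04). MACROD2 was at 1.04 ± 0.242 and 0.407 ± 0.122 CPM, or -1.34 (edgeR, adjusted p = 0.0082). Both hosts were therefore lower while the FLRT genes inside them did not pass, and the difference between host and inner gene was not tested.

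The antisense gene TENM3-AS1 lies across a TENM3 start site, and the TENM3 window printed above is within it. It shares 115 of 12010 exonic bases of TENM3 in GENCODE. TENM3-AS1 was at 13.3, 16.0 and 18.4 CPM in siControl and at 14.5, 13.1 and 15.4 CPM in siPSF. Its groups overlapped, and the log2 fold change was -0.15 (edgeR, adjusted p = 0.47).

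The genes whose pattern over the 6 libraries was most like that of TENM1 were sought among 11107 protein-coding genes of at least 5 CPM on average. WIPF1, PEX5L and GPC6 had the smallest root-mean-square difference of centred log2 CPM, at 0.079, 0.083 and 0.088. Their log2 fold changes were -1.61, -1.53 and -1.52. No gene of the families was called higher, so no such search was made for a rise.

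Known binding partners and effectors of the 3 families were listed to set values beside them. Of 17 partners, 5 were lower and 0 higher, beside 8.27% and 6.65% of all genes tested, with a median log2 fold change of -0.07. At an unadjusted p under 0.05, where 15.4% of all genes were lower and 14.4% higher, 7 were lower and 1 higher. DESeq2 called 6 lower and 0 higher. UNC5C and UNC5D, netrin receptors of the family that FLRT proteins bind, fell from 329 to 87.8 CPM and from 6.15 to 1.72 CPM, with log2 fold changes of -1.90 and -1.83 (edgeR, adjusted p = 1.7e-05 and 5.4e-05). CNTN6, a contactin that binds ADGRL1, fell from 1.63 to 0.676 CPM (-1.27; edgeR, adjusted p = 0.0015). ROBO1, the slit receptor that FLRT3 binds, fell by 0.45 on the log2 scale (edgeR, adjusted p = 0.0079). ROBO1 and UNC5D span 1171 and 561 kb, in the band where 53.8% of genes were called lower. UNC5C and CNTN6 span 386 and 311 kb, in the band where 20.7% were. UNC5B, at 813 CPM in siControl, did not pass at -0.30 on the log2 scale (edgeR, adjusted p = 0.058), nor did FGFR1 at -0.14 and UNC5A at -0.04. The 12 partners not called ranged from -0.89 to 0.36.

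Of 19 genes of G protein signalling, 4 were lower and 0 higher, beside 8.27% and 6.65% of all genes tested, with a median of -0.05. At an unadjusted p under 0.05 the counts were 5 and 3 (DESeq2 called 4 lower and 0 higher). PLCB1, a phospholipase C, fell from 9.69 to 4.40 CPM (log2 fold change -1.14; edgeR, adjusted p = 5.9e-04). PLCB4, GNAO1 (the main G protein alpha subunit of neurons) and ARRB1 (an arrestin) had log2 fold changes of -0.40, -0.39 and -0.39 and passed (edgeR, adjusted p = 0.028, 0.041 and 0.015). PLCB1 and PLCB4 span 753 and 412 kb, in the band where 53.8% of genes were called lower, and GNAO1 and ARRB1 166 and 91.5 kb. Without siControl replicate 2 or without siPSF replicate 1 only 1 of the list was called, and without siControl replicate 3 it was 2.

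Of 29 other adhesion GPCRs, 14 had a row and were tested. Of these, 3 were lower and 0 higher, beside 8.27% and 6.65% of all genes tested, with a median of -0.20. At an unadjusted p under 0.05 the counts were 5 and 1, and by DESeq2 5 and 0. ADGRB3, a receptor of C1q-like proteins at synapses, fell from 27.0 to 15.5 CPM, or by 0.80 on the log2 scale (edgeR, adjusted p = 4.2e-04). ADGRV1, mutated in a form of Usher syndrome, and CELSR3, a planar polarity cadherin needed for axon tracts, had log2 fold changes of -0.56 and -0.34 and passed (edgeR, adjusted p = 0.0078 and 0.018). ADGRB3 and ADGRV1 span 754 and 606 kb, in the band where 53.8% of genes were called lower, and CELSR3 spans 26.4 kb. Without siControl replicate 2 or without siPSF replicate 1, 2 of the list were called lower.

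The other leucine-rich repeat proteins of synapses went both ways. Of 22, 15 were tested. Of these, 1 was lower and 4 higher, beside 8.27% and 6.65% of all genes tested, with a median of 0.07. At an unadjusted p under 0.05 the counts were 4 and 5, and by DESeq2 3 and 5. LINGO2 fell from 19.3 to 5.08 CPM (log2 fold change -1.92; edgeR, adjusted p = 4.2e-05), and it spans 1276 kb. LINGO1, LRRTM2, SLITRK6 and LRFN1 rose by log2 fold changes of 0.66, 0.71, 0.47 and 0.64 (edgeR, adjusted p = 0.0047, 0.019, 0.028 and 0.030). LRRTM2 and LRFN1 encode postsynaptic organizers, and SLITRK6 a transmembrane protein needed in the inner ear. The count of higher genes fell to 1 without siControl replicate 2 or 3 and to 2 without siPSF replicate 1. The count of lower genes was 2 without siControl replicate 1 or siPSF replicate 1.

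**Figure D5:**
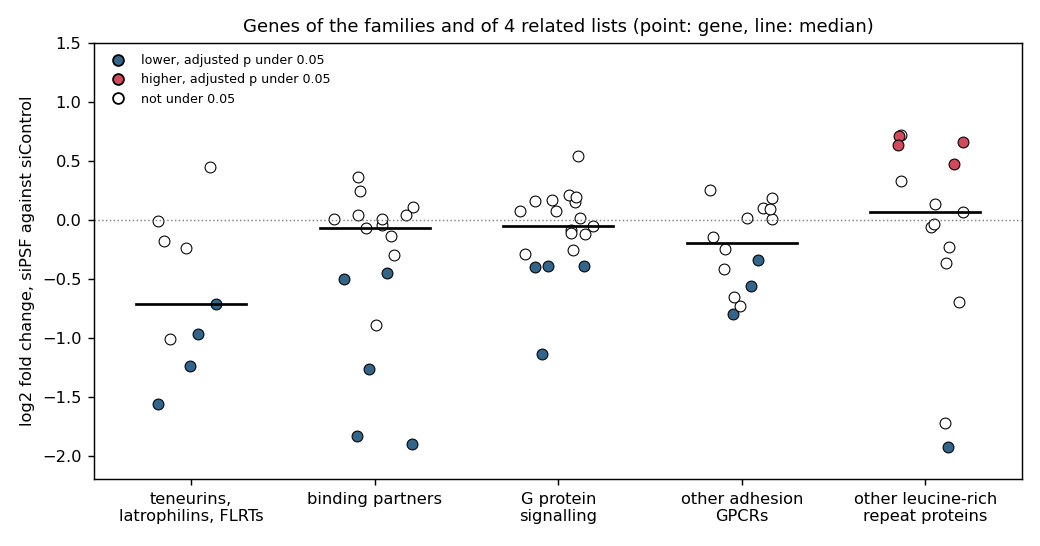
Log2 fold change of every tested gene of the 3 families and of the 4 related lists (points; lines are medians), coloured where the adjusted p was under 0.05. The median of the families is -0.71, and those of the lists lie between -0.20 and 0.07.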

How the data were processed

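RNA was poly(A)-selected and sequenced as 50 bp paired-end reads in 6 SH-SY5Y libraries, 3 siControl and 3 siPSF. Per the paper's methods the authors used Bowtie 2 against rRNA, then TopHat on hg38, with RefSeq genes for counting, whereas the submitters' processing notes name Trimmomatic, HISAT2 2.1.0, StringTie 2.1.3b and GRCh38. The authors deposited a read count and an FPKM value (RPKM in the methods) per gene and library. The smallest deposited count was 1, so genes without reads in a library are not analysed here. Groups and replicate numbers came from the sample titles.

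Counts were filtered with edgeR's filterByExpr, normalized by TMM and compared by the quasi-likelihood test of edgeR 4.0.16 in R 4.3.3, with no block. Alternatives used DESeq2 1.42.0 and limma 3.58.1, and permutation tests scipy 1.17.1 under Python 3.11.15. The fits were tested on simulated data. The common biological coefficient of variation was 12.6%, and replicate libraries differed with a chi-square of at least 22.6 per degree of freedom, so no pair was alike within sampling noise. Fold changes of the limma fits are on the log2(FPKM + 0.5) or log2(FPKM + 0.1) scale, for genes with a mean of at least 0.5 FPKM. The families and lists were chosen with earlier results of these data known. All 9 family genes were named, with up to 5 called genes per list by smallest p, direct binding partners and SFPQ. The 3 genes most like TENM1 were named too, and other genes were chosen after their values were seen. Some list genes are counted but not reported by name here. The alternatives were leaving out each library, a replicate block, DESeq2's size factors or Wald test, no filter, and limma on FPKM. Limma on rescaled FPKM and the ratios within families were added after the data were seen. Positions and sequences are RefSeq's on GRCh38.p14, and exons are from GENCODE v44.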

Additional observations from a re-analysis of the deposited data

How the results depend on the processing

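TENM3 and TENM4 kept their direction and their call in all 13 alternatives (log2 fold changes from -0.86 to -0.61 and from -1.10 to -0.80), and TENM1 and ADGRL3 in the 10 that tested them (from -1.73 to -1.41 and from -1.46 to -1.08). The limma fits left out TENM1, TENM2 and ADGRL3, whose mean FPKM was under 0.5. They therefore tested 6 of the family genes. Limma on log2(FPKM + 0.5) and on log2(FPKM + 0.1) called 2 of these lower, TENM3 and TENM4. Among these 6, edgeR on counts called the same 2, and among all 9 it called 4. With each library left out the count was 4 to 5. FLRT1 (-0.32 to -0.08) and FLRT3 (0.04 to 0.65) kept their direction and were not called in any of the 13. With each library left out ADGRL1 ranged from -0.060 to 0.043. It changed sign to 0.043 without siControl replicate 1 and to 0.018 without siPSF replicate 1, and was not called in any. Between 11 and 70 counts per library limit TENM2.

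With the replicate number as a block, edgeR called 4 family genes lower and 0 higher, and over all genes 1640 lower and 1389 higher, against 1628 and 1310 without it. Deviations of libraries with the same number correlated at -0.02, 0.20 and 0.09, and not every library correlated best with its own number, so the numbers were not taken to pair the libraries.

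Over all genes, leaving out 1 library gave 928 to 1735 lower and 572 to 1405 higher genes, with the lowest counts without siControl replicate 2. It gave 1022 and 732 without siControl replicate 3, and 1130 and 845 without siPSF replicate 1. Limma on rescaled FPKM called 3073 lower and 429 higher, and limma called 717 higher with an offset of 0.5 and 646 with 0.1. The medians of all genes were -0.06 in both of these and -0.16 on rescaled FPKM, against 0.01 in the main comparison. Limma with an offset of 0.5 or 0.1 called 3 or 2 partners lower out of 13 tested. On rescaled FPKM it called 8 genes of G protein signalling lower. DESeq2's Wald test called 5 other adhesion GPCRs lower. Of the other leucine-rich repeat proteins, DESeq2's Wald test called 3 lower and limma on rescaled FPKM 2, while limma called 1 higher (offset 0.5), 2 higher (offset 0.1) or 1 higher (rescaled FPKM). With each library left out, 1 to 4 genes of G protein signalling were lower, and of the other leucine-rich repeat proteins 1 to 2 were lower and 1 to 4 higher. The causes of these differences were not tested, apart from the fewer genes that the limma fits hold.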
